A study of Mus musculus with 12 samples.

Results

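The 52 genes described here copy DNA, prepare it for copying or supply the nucleotides for it. They form a named list by textbook roles, chosen with earlier results of these data known, so no p is given over the list. Each gene was read from its probe set that carried only that gene's symbol. Where a gene had several, the one with the highest mean over the arrays was used. All 52 of the 52 listed genes had such a probe set, among 19938 genes on the array, and all 52 were among the 11206 genes bright enough to test. By role, 13 act in origin licensing, 10 in origin firing, 8 in the polymerases, 11 at the sliding clamp and on single strands, 5 in nucleotide supply and 5 in packing or marking new chromatin. The sample labels describe SwHEL B cells, whose knocked-in receptor binds hen egg lysozyme. These cells carried the CD45.1 marker and were given to C57BL/6J hosts (CD45.2), which then received sheep red blood cells coupled to HEL3x, a lysozyme mutant. On day 10, donor-derived germinal centre cells (CD45.1+, CD45.2-, IgG1+, CD38 low) were sorted from the spleens of female mice into 4 groups: LZ_high and LZ_low (light zone, CD86 high and CXCR4 low, of high or low affinity) and DZ_high and DZ_low (dark zone, CXCR4 high and CD86 low, of high or low affinity). Each group had 3 arrays. All groups thus share one engineered starting receptor and one immunization, which limits them as a model of a mixed response. The labels do not state the age, the gate that set high against low affinity, or whether arrays came from separate animals or pools. The p-values thus rest on the spread among these arrays, part or all of which may be technical.

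Germinal centres form in lymphoid tissue after immunization, and B cells in them proliferate, mutate their receptor genes and compete for selection. Dark zone cells are known for rapid division and light zone cells for antigen capture and contact with helper T cells, and cells selected there can enter S phase before or while they return to the dark zone. In every cell cycle, origins are first licensed in G1, when the origin recognition complex, Cdc6 and Cdt1 load the Mcm2-7 helicase onto DNA. In S phase, kinases, Cdc45 and the GINS complex switch the helicase on, polymerases copy the strands behind a sliding clamp, and histone chaperones rebuild chromatin. Many of these genes are transcribed under E2F factors at the border of G1 and S, so their RNA is often read as a sign of cells in or near S phase.

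All values are log2 expression values as deposited, so a difference of 1 is a doubling. Each difference is given with the standard error of the fit, after the sign ±, and a gene is called when its p, adjusted over all tested genes, is below 0.05. The 12 arrays had medians of 5.57 to 5.72 over all probe sets. The array number limits the precision, since no read depth exists for arrays. The label suffixes form 3 matched sets of 4 arrays, with 1 array of each group in a set; the labels do not say what the suffix marks. On the first principal component, matched set 3 lay away from the rest (12.5 to 52.9, against -26.4 to -6.7 for the other 8). The 4 B cell markers read had median values of 10.52 to 11.07 in the 12 arrays, and 4 germinal centre markers had 9.55 to 10.12. All 5 light zone markers were called higher in LZ than in DZ, with a median difference of 1.51, and all 4 dark zone markers with a usable probe set were lower, with a median of -0.60 and 2 of them called. The sort used Cd86, a light zone marker, and Cxcr4, a dark zone marker. Their zone differences follow from the gate and are no independent check of the zones. Cd86 had 9.41, 9.58 and 9.27 in DZ_high against 10.28, 10.00 and 10.41 in DZ_low.

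Most of the replication genes had a higher mean in high-affinity than in low-affinity cells in both zones, and none of them passed the test. Averaged over both zones, the 52 genes had a median difference of 0.29 for high minus low affinity, with a range of -0.23 to 0.77, while the median over all 11206 tested genes was 0.00. Of the 52 genes, 47 had the higher mean in high-affinity cells, against 49.6% of all tested genes. No single gene passed the test: with limma and Benjamini-Hochberg adjustment over all tested genes, 0 of the 52 were called at an adjusted p below 0.05, and the smallest adjusted p among them was 0.809. In this contrast 0% of all tested genes were called, so no gene of any kind passed. With the matched set as a block the count was again 0 of 52 and 0% of all genes, and the smallest adjusted p of a replication gene was 0.327. At an unadjusted p below 0.05, 14 of the 52 were higher and 0 were lower, where 2.21% of all tested genes were higher and 3.03% lower. With the block 23 of the 52 were higher, against 3.81% of all tested genes, and with array weights 30 were, against 8.21%. Those weights were 9.15 for LZ_high 2, and 0.75 and 0.213 for LZ_high 1 and LZ_high 3. The weighted LZ_high mean thus rested largely on 1 array. Because the samples are pools of sorted cells, a larger share of cells in S phase and more of these transcripts in each cell cannot be told apart.

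**Figure D1:**
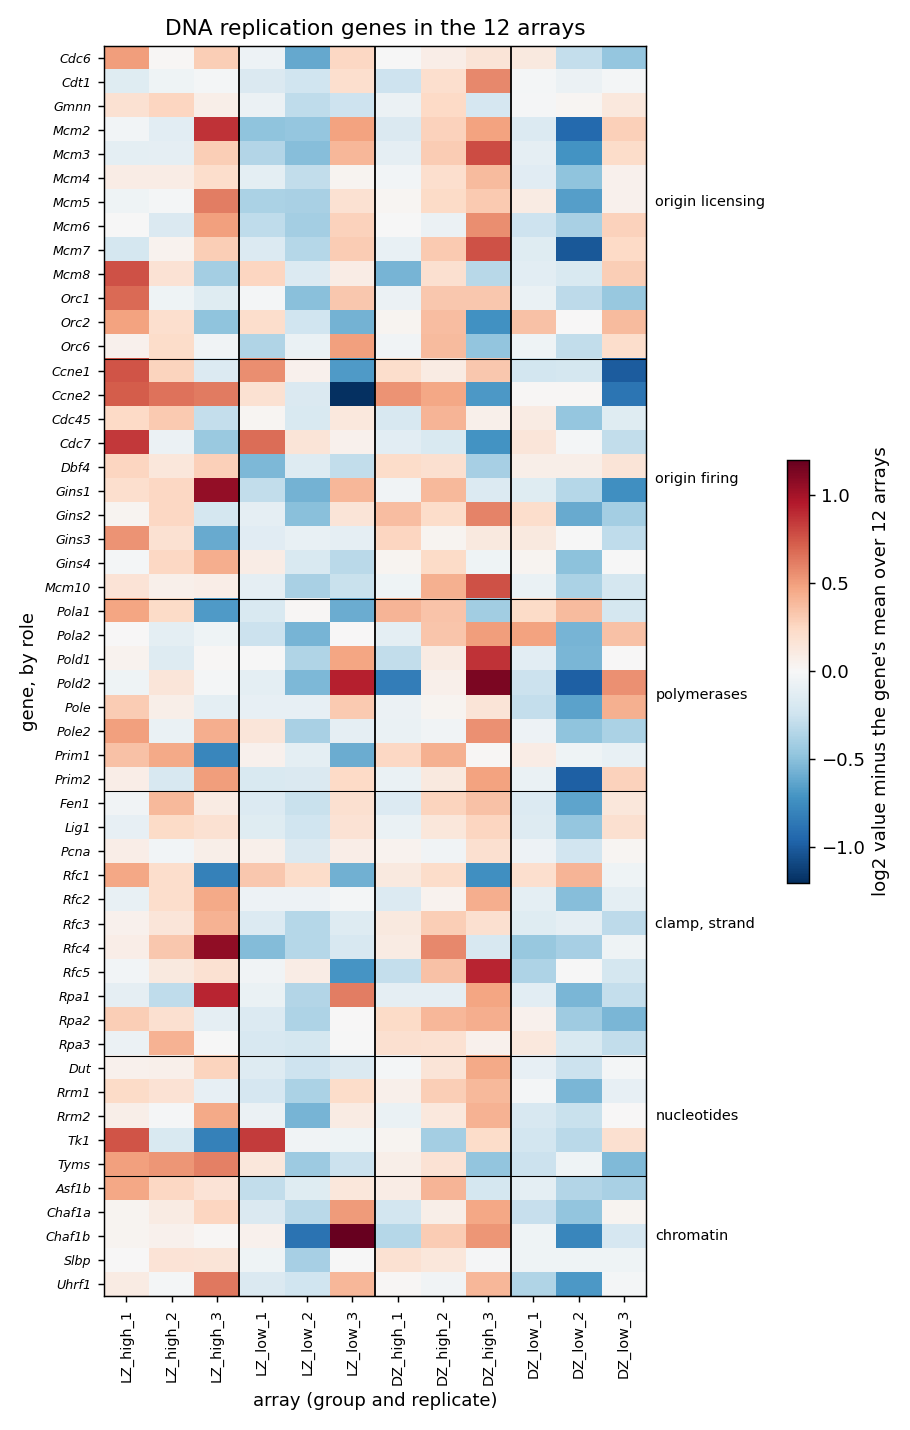
Log2 value of each of the 52 replication genes in each of the 12 arrays, minus that gene's mean over the arrays, with genes grouped by role (rows) and arrays by group and replicate (columns). Red is above and blue below the gene's mean; the array DZ_low 2 held the lowest value of 22 genes, and DZ_high 3 the highest value of 17.

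The median affinity difference was positive in every matched set but varied in size. The median over the 52 genes was 0.14 in matched set 1, 0.49 in matched set 2 and 0.20 in matched set 3, and 42, 49 and 38 of the 52 genes were higher in high-affinity cells in those sets, against 40.9%, 55.9% and 50.7% of all tested genes. Over all tested genes the medians in the 3 sets were -0.05, 0.04 and 0.01. In 33 of the 52 genes the high-affinity value was the higher one in each of the 3 sets, which held for 13% of all tested genes, and 1, Cdc7, was lower in each set, as were 16.2% of all tested genes. Every high-affinity array lay above every low-affinity array for 2 genes, Mcm10 and Rfc3, against 0.134% of all tested genes. As array medians of each gene's deviation from its own mean, the replication genes stood at 0.08, 0.14 and 0.13 in LZ_high, at -0.12, -0.28 and 0.09 in LZ_low, at -0.04, 0.21 and 0.32 in DZ_high, and at -0.08, -0.37 and -0.04 in DZ_low. The 2 lowest of these 12 medians came from the low-affinity arrays of matched set 2, DZ_low 2 and LZ_low 2. Without the 4 arrays of matched set 2, an alternative chosen after seeing the data, the median difference was 0.18, 41 of the 52 genes were higher, where 46.5% of all tested genes were, and 1 gene was higher at an unadjusted p below 0.05, where 0.482% of all tested genes were. Among single genes, the differences were then 0.25 for Mcm2, 0.24 for Mcm5, 0.05 for Gmnn and 0.17 for Rrm1. Without DZ_low replicate 2 alone the median was 0.22 and 9 genes were higher at an unadjusted p below 0.05, against 1.48% of all tested genes. Without LZ_low replicate 2 alone 9 genes were, against 1.62%, and with each array centred on its own median 9 were, against 1.42%. The count was 23 without matched set 3, against 3.5% of all tested genes, and 22 without LZ_low replicate 3 alone, against 2.57%.

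**Figure D2:**
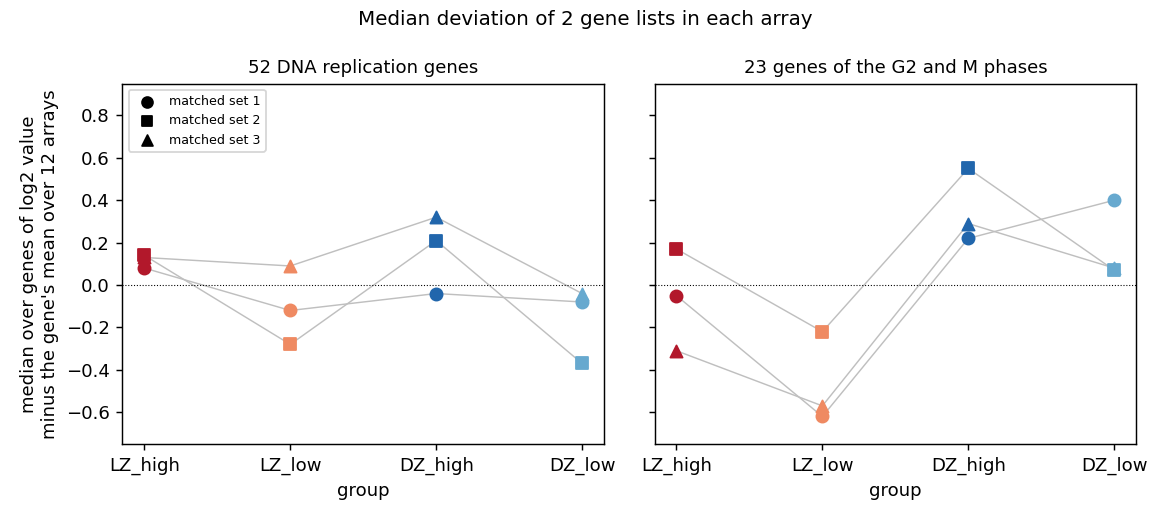
Median over genes of the log2 value minus the gene's mean over 12 arrays, for the 52 replication genes (left) and for 23 genes of the G2 and M phases (right); symbols mark the matched sets, lines join the arrays of a set. Replication genes are lowest in DZ_low 2 (-0.37) and highest in DZ_high 3 (0.32), while the G2 and M genes are lowest in LZ_low 1 (-0.62).

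By group, 24 of the 52 genes had their highest mean in LZ_high and 23 in DZ_high, so 47 peaked in a high-affinity group, against 50.9% of all tested genes. The lowest mean fell in DZ_low for 30 genes and in LZ_low for 18, so 48 were lowest in a low-affinity group, against 49% of all tested genes. All 6 roles had a positive median for high minus low affinity: 0.32 for licensing, 0.36 for firing, 0.19 for the polymerases, 0.30 for clamp and single-strand factors, 0.33 for nucleotide supply and 0.23 for chromatin factors. The roles were close to each other, and no difference between them was tested. The standard error of one gene's difference averaged over zones ran from 0.10 to 0.37.

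Origin licensing genes came first in the cycle. Of these 13 genes, 11 had the higher mean in high-affinity cells, and Mcm4, a helicase subunit, was the 1 with an unadjusted p below 0.05 (a difference of 0.32 ± 0.12). The helicase subunit Mcm2 had 9.36, 9.27 and 10.26 in LZ_high against 8.91, 8.93 and 9.88 in LZ_low, and 9.22, 9.67 and 9.88 in DZ_high against 9.23, 8.46 and 9.68 in DZ_low. Its difference of 0.43 ± 0.27 was the largest among the licensing genes; matched set 3 was high in all 4 groups, DZ_low 2 was the lowest array, and the high and low groups overlapped in both zones. Mcm5, another subunit of the ring, had 9.36, 9.39 and 10.02 in LZ_high against 9.03, 9.02 and 9.59 in LZ_low, and 9.43, 9.64 and 9.72 in DZ_high against 9.51, 8.75 and 9.46 in DZ_low. The difference was 0.37 ± 0.18, and in LZ each set's high-affinity array was the higher of its pair while in DZ matched set 1 ran the other way. The other ring subunits differed by 0.35 ± 0.22 (Mcm3), 0.26 ± 0.19 (Mcm6) and 0.37 ± 0.23 (Mcm7), so all 6 subunits of Mcm2-7 had the higher mean in high-affinity cells. Mcm6 was the most even across matched sets, with differences of 0.27, 0.28 and 0.25.

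The loading factors were less uniform. Cdc6, the loading ATPase, differed by 0.35 ± 0.16 and Orc1, a subunit of the origin recognition complex, by 0.35 ± 0.18, while the subunits Orc2 (-0.04 ± 0.23) and Orc6 (0.03 ± 0.18) were near 0. Cdt1, which brings the helicase to the origin, had 6.14, 6.24 and 6.27 in LZ_high against 6.12, 6.05 and 6.49 in LZ_low, and 6.04, 6.49 and 6.87 in DZ_high against 6.27, 6.22 and 6.27 in DZ_low. These are values not far above the array medians; one array, DZ_high 3, stood highest, and the difference of 0.11 ± 0.14 was 0.01 without it. Geminin (Gmnn), which binds and blocks Cdt1 after licensing, had 9.50, 9.58 and 9.39 in LZ_high against 9.25, 9.02 and 9.07 in LZ_low, and 9.25, 9.56 and 9.12 in DZ_high against 9.31, 9.34 and 9.45 in DZ_low. In LZ the 3 high-affinity arrays all lay above the 3 low-affinity arrays, with a difference of 0.38 ± 0.15; in DZ the groups overlapped and the difference was -0.05 ± 0.15. Mcm8, a related helicase known for recombination repair and not part of the Mcm2-7 ring, had the lowest difference of the group, -0.06 ± 0.21.

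Because many of these genes are known E2F targets, the RefSeq promoter windows (build GRCm38.p6, from 250 bases before to 50 after the annotated start) were searched for 4 E2F-type motifs, TTTCCCGC, TTTGGCGC, TTTCGCGC and TTTGCCGC, on both strands. Windows were at hand for 43 of the 52 genes, and 15 of the 43 (34.9%) held at least 1 such motif, against 3.29% of 17492 protein-coding genes. By role the count was 8 of 11 licensing genes (72.7%), 1 of 6 firing genes, 3 of 6 polymerase genes, 2 of 10 clamp and single-strand genes, 0 of 5 nucleotide supply genes and 1 of 5 chromatin genes. A match is a description of letters and not a shown site. The windows printed here belong to 4 helicase subunits, all with more than 1 match, and to Rfc3, the gene with the smallest unadjusted p by affinity. Only windows with a match are printed. Among genes with a window and an unadjusted p below 0.05 by affinity, only Rfc3 and Pole2 held a match. Mcm10, Rfc4, Rpa2, Tyms, Rrm1, Rrm2, Dut and Asf1b held none. Whether the motifs go with the affinity difference was not tested. Capitals mark the E2F-type motifs on either strand, and in Mcm5 and Mcm6 2 motifs on opposite strands overlap and form one run of capitals. The windows lie at chr1:20820263-20820562 (minus strand) for Mcm3, chr8:75109259-75109558 (plus strand) for Mcm5, chr1:128359656-128359955 (minus strand) for Mcm6, chr5:138171834-138172133 (minus strand) for Mcm7 and chr5:151651159-151651458 (minus strand) for Rfc3.
Mcm3: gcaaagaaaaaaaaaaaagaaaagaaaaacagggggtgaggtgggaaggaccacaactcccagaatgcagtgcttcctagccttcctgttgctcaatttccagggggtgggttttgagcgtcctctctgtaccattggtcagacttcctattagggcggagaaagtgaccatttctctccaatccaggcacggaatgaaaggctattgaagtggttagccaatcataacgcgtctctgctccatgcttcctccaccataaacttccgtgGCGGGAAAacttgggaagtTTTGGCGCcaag
Mcm5: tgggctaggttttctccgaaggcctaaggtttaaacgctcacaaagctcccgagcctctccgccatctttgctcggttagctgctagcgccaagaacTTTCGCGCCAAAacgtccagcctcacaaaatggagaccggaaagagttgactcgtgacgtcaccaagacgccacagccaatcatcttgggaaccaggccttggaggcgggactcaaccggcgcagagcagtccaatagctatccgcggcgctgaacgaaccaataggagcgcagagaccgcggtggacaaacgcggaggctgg
Mcm6: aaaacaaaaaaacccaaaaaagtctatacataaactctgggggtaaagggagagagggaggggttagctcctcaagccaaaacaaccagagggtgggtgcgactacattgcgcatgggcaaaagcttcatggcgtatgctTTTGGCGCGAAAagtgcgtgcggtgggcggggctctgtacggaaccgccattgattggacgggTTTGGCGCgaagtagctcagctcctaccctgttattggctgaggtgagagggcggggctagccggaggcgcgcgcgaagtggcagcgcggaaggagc
Mcm7: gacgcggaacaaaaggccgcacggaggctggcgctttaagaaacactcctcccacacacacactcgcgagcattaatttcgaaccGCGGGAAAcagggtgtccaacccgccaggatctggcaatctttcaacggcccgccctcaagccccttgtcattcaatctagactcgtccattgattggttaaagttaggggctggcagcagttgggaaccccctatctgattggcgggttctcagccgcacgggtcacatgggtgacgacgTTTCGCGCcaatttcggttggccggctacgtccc
Rfc3: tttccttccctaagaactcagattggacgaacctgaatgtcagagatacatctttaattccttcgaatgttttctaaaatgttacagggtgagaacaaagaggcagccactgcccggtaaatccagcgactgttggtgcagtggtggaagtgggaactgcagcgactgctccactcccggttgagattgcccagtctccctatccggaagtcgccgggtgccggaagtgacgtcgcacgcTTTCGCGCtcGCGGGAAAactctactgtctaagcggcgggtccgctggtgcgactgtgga

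The same windows were searched for 2 further motifs, CCAAT (the box bound by NF-Y) and TTTGAA (known as the CHR, or cell cycle genes homology region, of genes expressed in G2 and M). CCAAT occurred in 27 of the 43 genes (62.8%) and in 42.3% of protein-coding genes. TTTGAA occurred in 8 of the 43 (18.6%), about the 18.5% of protein-coding genes. It was not spread evenly over the roles: it was in 4 of 6 firing genes (66.7%), and in 1 of 11 licensing genes, 1 of 6 polymerase genes, 1 of 10 clamp and single-strand genes, 0 of 5 nucleotide supply genes and 1 of 5 chromatin genes. In the list of G2 and M genes, of which 20 had a window, TTTGAA was in 14 (70.0%), an E2F-type motif in 1 (5.0%) and CCAAT in 17 (85.0%).

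Among the 10 origin firing genes, 9 had the higher mean in high-affinity cells and 4 had an unadjusted p below 0.05. Mcm10, which helps to activate the loaded helicase, had 8.20, 8.09 and 8.11 in LZ_high against 7.93, 7.64 and 7.77 in LZ_low, and 7.98, 8.46 and 8.80 in DZ_high against 7.95, 7.65 and 7.82 in DZ_low. No high-affinity array was below any low-affinity array, and the difference was 0.48 ± 0.14 (set values 0.14, 0.63 and 0.66). Without DZ_high replicate 3 its difference within DZ was 0.41, against 0.60 ± 0.20 with all arrays. Gins2, a subunit of the GINS complex of the active helicase, had 9.03, 9.25 and 8.79 in LZ_high against 8.89, 8.50 and 9.15 in LZ_low, and 9.37, 9.22 and 9.59 in DZ_high against 9.21, 8.39 and 8.59 in DZ_low. In DZ the high-affinity arrays all lay above the low-affinity ones, by 0.66 ± 0.24, whereas in LZ the groups overlapped (0.18 ± 0.24); the interaction term was -0.49 ± 0.34 and was not called. With array weights in the fit the DZ value was 0.36.

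Gins1, another GINS subunit, had 9.07, 9.11 and 9.92 in LZ_high against 8.57, 8.30 and 9.26 in LZ_low, and 8.82, 9.25 and 8.70 in DZ_high against 8.72, 8.52 and 8.13 in DZ_low. High-affinity arrays were the higher ones in all 6 matched pairs, and the mean difference by affinity was 0.56 ± 0.21. The remaining subunits differed by 0.17 ± 0.17 (Gins3) and 0.29 ± 0.14 (Gins4), and Cdc45, their helicase partner, by 0.18 ± 0.16.

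The kinases that start replication did not share one pattern. Cdc7, the kinase that phosphorylates the loaded helicase, had 8.06, 7.14 and 6.76 in LZ_high against 7.88, 7.36 and 7.26 in LZ_low, and 7.08, 7.03 and 6.49 in DZ_high against 7.35, 7.19 and 6.91 in DZ_low. It had the lowest affinity difference of all 52 genes, -0.23 ± 0.22, with the high-affinity array the lower one in 5 of 6 pairs, and the fit did not call it. Dbf4, the activating subunit of that kinase, had 9.12, 8.99 and 9.14 in LZ_high against 8.32, 8.70 and 8.56 in LZ_low, and 9.08, 9.05 and 8.46 in DZ_high against 8.93, 8.93 and 9.01 in DZ_low. In LZ the groups did not overlap (0.56 ± 0.18), in DZ they did (-0.10 ± 0.18), and the interaction of zone and affinity was 0.65 ± 0.26, the 1 replication gene with an unadjusted p below 0.05 for it, where 0.759% of all tested genes were positive at that level. It was not called (adjusted p of 1 in the limma fit, as for every replication gene).

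Cyclin E2 (Ccne2), which drives Cdk2 at the entry to S phase, had 8.96, 8.89 and 8.86 in LZ_high against 8.42, 8.06 and 6.75 in LZ_low, and 8.77, 8.70 and 7.55 in DZ_high against 8.25, 8.25 and 7.36 in DZ_low. Its affinity difference, 0.77 ± 0.31, was the largest of the 52 genes. The gap in LZ, 1.15 ± 0.44, leaned on the low array LZ_low 3, and without that replicate the mean over both zones was 0.52. Cyclin E1 (Ccne1) had 8.63, 8.14 and 7.71 in LZ_high against 8.44, 7.93 and 7.20 in LZ_low, and 8.09, 7.98 and 8.20 in DZ_high against 7.66, 7.67 and 6.88 in DZ_low. The difference was 0.50 ± 0.23, the groups of the DZ did not overlap, and the high-affinity array was the higher one in all 6 pairs. Matched set 3 gave 0.92, against 0.31 and 0.26 in sets 1 and 2, and the difference was 0.28 without that set, 0.33 without LZ_low replicate 3 alone and 0.31 with array weights.

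**Figure D3:**
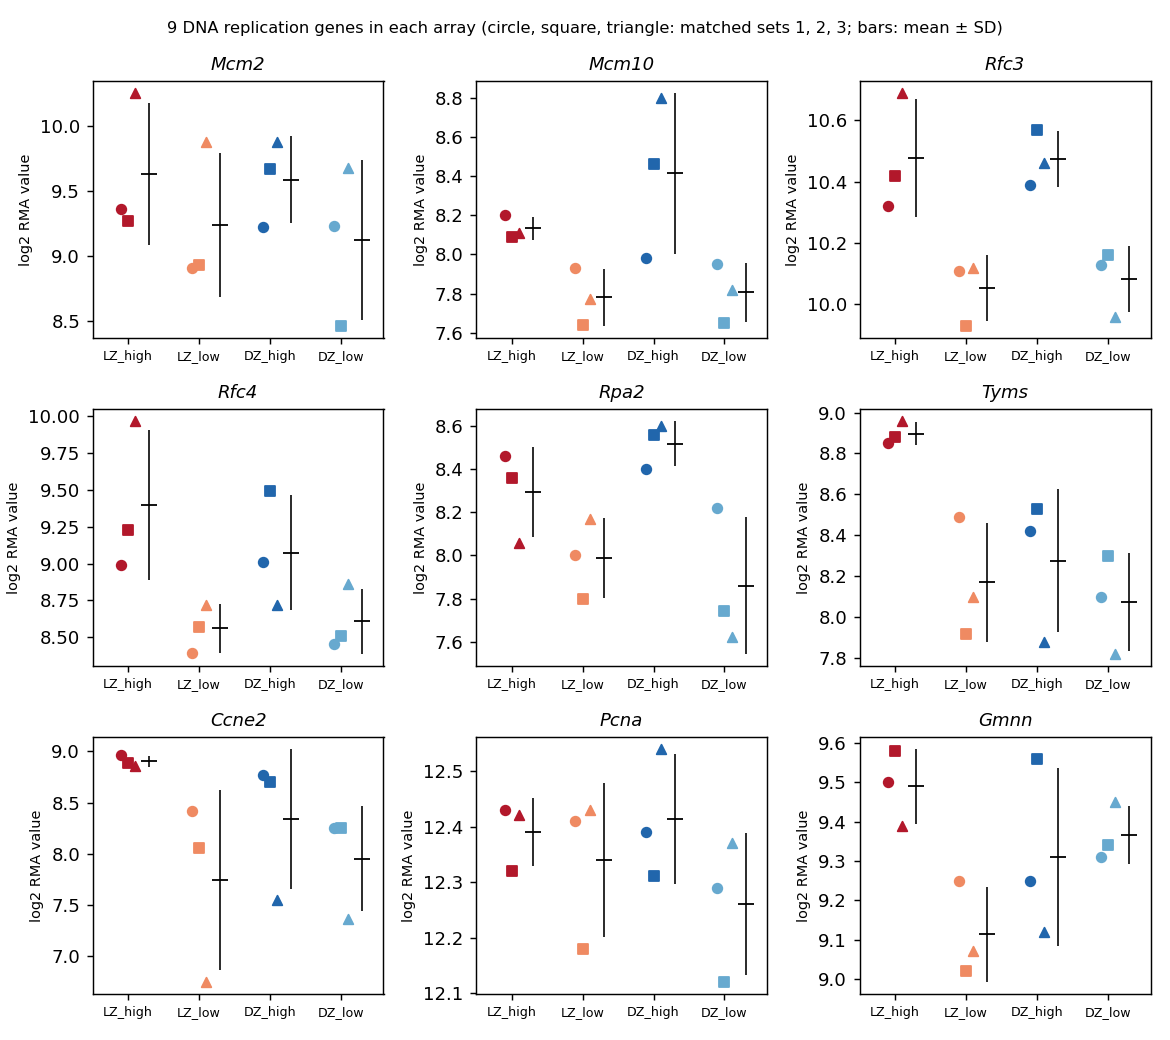
Log2 values of 9 replication genes in each of the 12 arrays, by group, with the mean and SD of the 3 arrays beside the points. For Mcm10 and Rfc3 all high-affinity arrays lie above all low-affinity arrays; for Pcna the groups differ by 0.10 in the mean.

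All 8 polymerase genes had the higher mean in high-affinity cells, but the differences were small, with a median of 0.19. Pole2, the second subunit of the leading-strand polymerase, had the largest at 0.42 ± 0.16 and was the 1 with an unadjusted p below 0.05. Pola1, the catalytic subunit of the polymerase that makes primers, had the smallest at 0.12 ± 0.23. The primase subunits Prim1 and Prim2 differed by 0.24 ± 0.21 and 0.30 ± 0.22, and the lagging-strand subunits Pold1 and Pold2 by 0.19 ± 0.21 and 0.14 ± 0.37. Pola2, the regulatory subunit of the primer-making polymerase, had 7.77, 7.65 and 7.72 in LZ_high, 7.51, 7.21 and 7.77 in LZ_low, 7.65, 8.10 and 8.27 in DZ_high and 8.25, 7.21 and 8.12 in DZ_low. It was lower in LZ than in DZ in each matched set, by -0.31, -0.22 and -0.45, and the mean zone difference was -0.33 ± 0.19.

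Of the 11 clamp and single-strand genes, 10 had the higher mean in high-affinity cells and 3 had an unadjusted p below 0.05. Rfc3, a subunit of the loader that opens the Pcna ring, had 10.32, 10.42 and 10.69 in LZ_high against 10.11, 9.93 and 10.12 in LZ_low, and 10.39, 10.57 and 10.46 in DZ_high against 10.13, 10.16 and 9.96 in DZ_low. Neither zone's groups overlapped, the differences were 0.43 ± 0.14 in LZ and 0.39 ± 0.14 in DZ, and the high-affinity array was higher in all 6 pairs. Rfc4, another loader subunit, had 8.99, 9.23 and 9.97 in LZ_high against 8.39, 8.57 and 8.72 in LZ_low, and 9.01, 9.49 and 8.72 in DZ_high against 8.45, 8.51 and 8.86 in DZ_low. Its difference averaged 0.65 ± 0.19; in LZ it was 0.83 ± 0.27 with no overlap, and 0.54 without LZ_high replicate 3. In a fit that weights arrays by their quality, Rfc3 (0.40 ± 0.08, limma adjusted p 0.0459) and Rfc4 (0.74 ± 0.13, limma adjusted p 0.0311) were called, 2 of the 52 genes of any kind that this fit called, while the fit with equal weights called neither. In the weighted fit LZ_high 2 had a weight of 9.15, against 0.75 and 0.213 for LZ_high 1 and LZ_high 3. The other small subunits Rfc2 (0.30 ± 0.14) and Rfc5 (0.42 ± 0.20) were also positive, and Rfc1, the large subunit, had -0.18 ± 0.26.

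Pcna, the sliding clamp itself, had 12.43, 12.32 and 12.42 in LZ_high against 12.41, 12.18 and 12.43 in LZ_low, and 12.39, 12.31 and 12.54 in DZ_high against 12.29, 12.12 and 12.37 in DZ_low. The groups overlapped in both zones, with a difference of 0.10 ± 0.10. Rpa2, a subunit of the complex that coats single-stranded DNA, had 8.46, 8.36 and 8.06 in LZ_high against 8.0, 7.80 and 8.17 in LZ_low, and 8.40, 8.56 and 8.60 in DZ_high against 8.22, 7.74 and 7.62 in DZ_low. In DZ the high-affinity arrays all lay above the low-affinity arrays (0.66 ± 0.19), and in LZ matched set 3 ran the other way (0.30 ± 0.19). Its partners Rpa1 and Rpa3 differed by 0.26 ± 0.24 and 0.26 ± 0.12, the flap nuclease Fen1 by 0.30 ± 0.16 and the ligase Lig1 by 0.21 ± 0.14.

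In nucleotide supply, 4 of the 5 genes had an unadjusted p below 0.05 for high minus low affinity. Tyms, thymidylate synthase, which makes the thymidine nucleotide from the uridine one, had 8.85, 8.88 and 8.96 in LZ_high against 8.49, 7.92 and 8.10 in LZ_low, and 8.42, 8.53 and 7.88 in DZ_high against 8.10, 8.30 and 7.82 in DZ_low. LZ_high stood above the other 3 groups: no LZ_high array was below any array of them, and the difference from LZ_low was 0.73 ± 0.21, against 0.21 ± 0.21 in DZ. The interaction for Tyms was 0.52 ± 0.30, which neither the test over all genes nor an unadjusted p below 0.05 picked out. Rrm1, the large subunit of ribonucleotide reductase, had 10.68, 10.63 and 10.35 in LZ_high against 10.25, 10.07 and 10.67 in LZ_low, and 10.51, 10.75 and 10.84 in DZ_high against 10.43, 9.90 and 10.35 in DZ_low. Its groups did not overlap in DZ (0.47 ± 0.20), and the mean over both zones was 0.35 ± 0.14. Rrm2, the small subunit made in S phase, had 10.06, 9.98 and 10.45 in LZ_high against 9.92, 9.43 and 10.09 in LZ_low, and 9.91, 10.12 and 10.41 in DZ_high against 9.80, 9.72 and 10.00 in DZ_low. The high-affinity array was higher in all 6 pairs, and the mean difference was 0.33 ± 0.15. Dut, which keeps uracil out of DNA, differed by 0.32 ± 0.11, and Tk1, the thymidine salvage kinase, by -0.13 ± 0.26. Tk1 had 2 probe sets, and the one with the higher mean was read. With all probe sets of a gene averaged, 48 replication genes were higher over both zones, where 49.5% of all tested genes were. With 1 probe set per gene 47 were. Tk1 was the only lower gene with more than 1 probe set, so its direction depended on that choice.

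Uhrf1, which recruits the maintenance DNA methyltransferase to new strands, had 10.96, 10.83 and 11.49 in LZ_high against 10.68, 10.62 and 11.26 in LZ_low, and 10.87, 10.82 and 11.26 in DZ_high against 10.50, 10.17 and 10.83 in DZ_low. All 6 matched pairs had the higher value in high-affinity cells, by a mean of 0.36 ± 0.18, although the unpaired groups overlapped, with matched set 3 the highest array in each group. The histone chaperone Asf1b had the largest difference of the 5 chromatin genes, 0.39 ± 0.13, and Chaf1b, a subunit of the chromatin assembly factor, the smallest, 0.20 ± 0.31. Chaf1a, its partner, differed by 0.23 ± 0.17, and Slbp, which binds the ends of histone messages, by 0.21 ± 0.10.

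Within each zone the median over the 52 genes was positive, but the matched sets differed. In LZ, 46, 48 and 28 of the 52 were higher in sets 1, 2 and 3, against 47.6%, 50.7% and 50.2% of all tested genes. In DZ, 34, 48 and 41 were, against 35.4%, 59.1% and 49.2%. In LZ, the 52 genes had a median difference of 0.24 for high minus low affinity (set medians 0.25, 0.40 and 0.03), 45 were higher, where 49.7% of all tested genes were, and 0 were called, as were 0% of all genes; the smallest adjusted p was 0.999. At an unadjusted p below 0.05, 6 of the 52 were higher (Gmnn, Dbf4, Ccne2, Rfc3, Rfc4 and Tyms), against 1.75% of all tested genes. High- and low-affinity arrays of LZ did not overlap for 11 of the 52, all higher, against 4.32% of all tested genes, and 24 were higher in each matched set, against 15.1%. In DZ, the median was 0.34 (set medians 0.05, 0.55 and 0.31), 45 were higher, where 50.4% of all tested genes were, and 0 were called, as were 0% of all genes, with a smallest adjusted p of 1. At an unadjusted p below 0.05, 5 were higher (Mcm10, Gins2, Rfc3, Rpa2 and Rrm1), against 0.937% of all tested genes. With the block these counts were 8 in LZ, against 3.59% of all tested genes, and 13 in DZ, against 1.87%. The LZ count was 23 with array weights, which leaned on LZ_high 2, against 9.72% of all tested genes, and 13 without matched set 3, against 3.19%. It was 2 without matched set 2, against 0.767%, and 4 without LZ_low replicate 2, against 1.36%. The DZ count was 12 without DZ_high replicate 1, against 1.82% of all tested genes, and 9 without DZ_low replicate 3, against 0.866%. It was 3 without DZ_high replicate 2, against 0.821%, 3 without DZ_low replicate 2, against 0.759%, and 0 without matched set 2, against 0.33%. It was 12 after quantile normalization, against 1.62%, 9 with array weights, against 2.71%, and 8 without matched set 3, against 1.19%. The groups of DZ did not overlap for 9 of the 52, all higher, against 3.29% of all tested genes, and 27 were higher in each matched set, against 9.31%. Without LZ_low replicate 2 the LZ median was 0.15, without matched set 2 the DZ median was 0.21, and without DZ_low replicate 2 it was 0.23. The interaction of zone and affinity had a median of -0.06 over the 52 genes and called 0 of them and 0% of all tested genes.

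**Figure D4:**
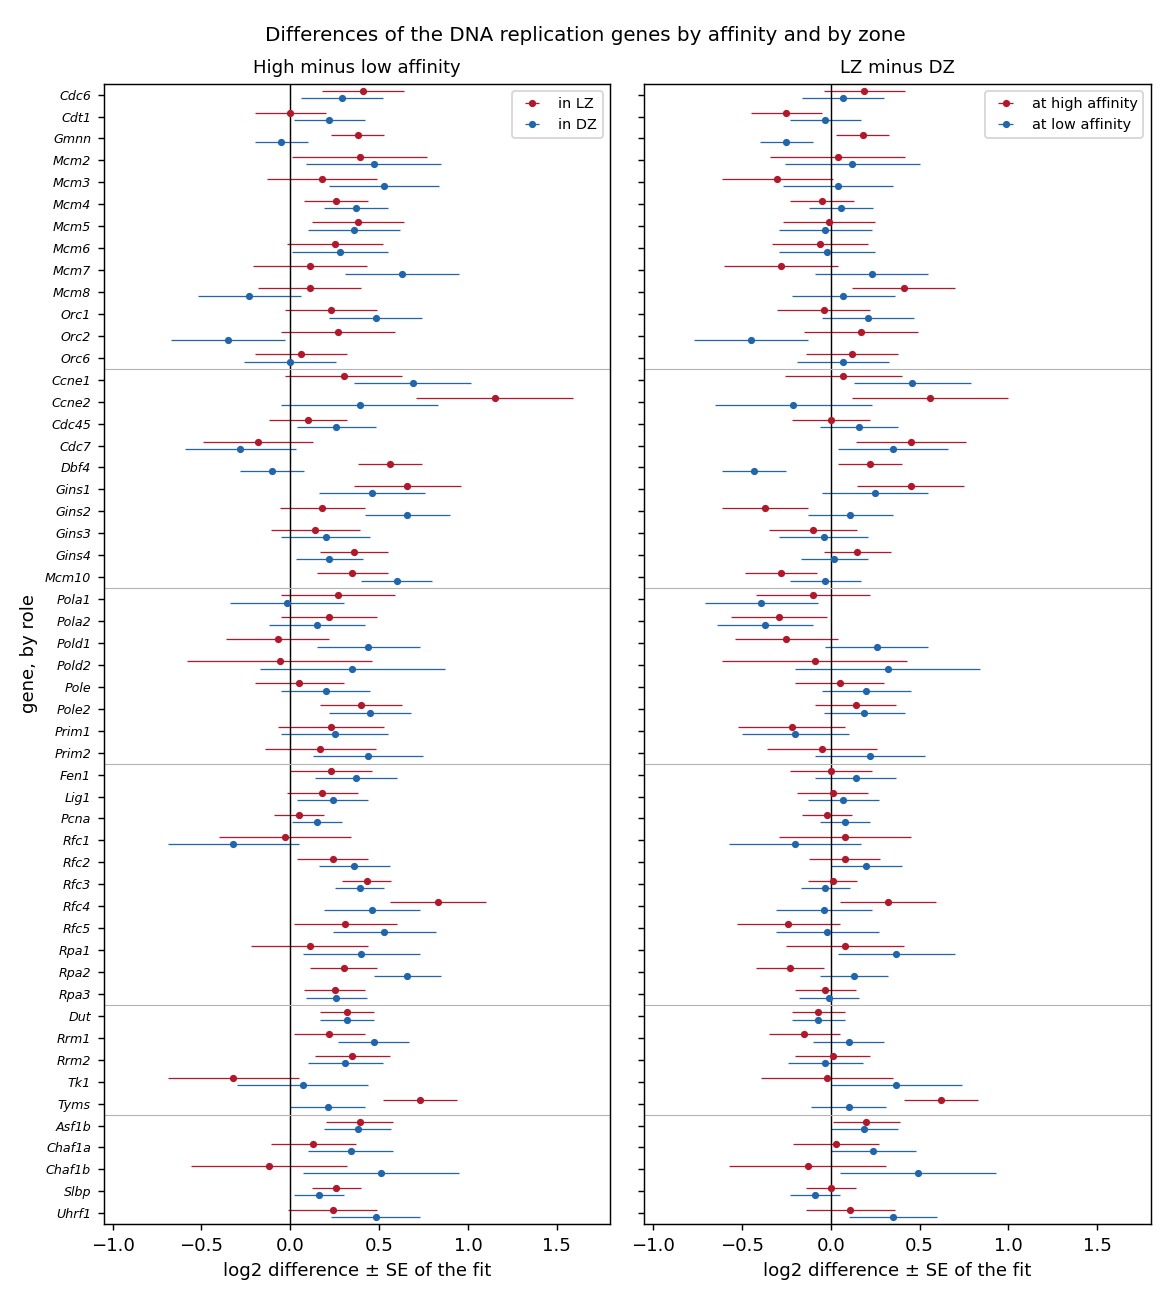
Log2 difference with its standard error for each of the 52 genes, high minus low affinity in LZ and in DZ (left) and LZ minus DZ at high and at low affinity (right). On the left 45 of 52 points lie above 0 in each zone; on the right the points spread around 0, with medians of 0.00 and 0.07.

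By zone, the replication genes had no common direction. For LZ minus DZ, averaged over both affinities, the 52 genes had a median of 0.03 (-0.33 to 0.40), 29 higher, where 49% of all tested genes were, and 23 lower, and 0 were called, where 0.419% of all tested genes were; the smallest adjusted p was 0.613. With the block 0 were called, against 1.2% of all tested genes. Tyms, with a zone difference of 0.36 ± 0.15, was the 1 gene with an unadjusted p below 0.05, where 4.1% of all tested genes were higher at that level; with the block Tyms, Cdc7 and Uhrf1 had one, against 6.5% of all tested genes. Cdc7 (0.40 ± 0.22, and 0.22 without LZ_high replicate 1) and Gins1 (0.35 ± 0.21) followed, and the Gins1 value depended on matched set 3: it was -0.06 without that set and 0.21 without LZ_high replicate 3 alone. At high affinity the median was 0.00 and at low affinity 0.07, each with 0 genes called, against 0.0357% of all tested genes in either contrast. All LZ_high arrays lay above all DZ_high arrays for Ccne2 and Tyms, 2 of the 52, against 3.72% of all tested genes. All LZ_low arrays lay above all DZ_low arrays for Rfc2 (5.41% of all tested genes) and below them for Gmnn and Dbf4 (3.86%), shares close to the background. A p above the threshold does not show that the zones express these genes alike, and the standard errors were 0.10 to 0.37 averaged over affinities and 0.14 to 0.52 at one affinity.

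Of the 23 tested genes in a list of G2 and M genes, 4 were called lower in LZ than in DZ, as were 21 of all 11206 tested genes. With the block 7 of the 23 were called, where 1.2% of all tested genes were called in either direction. The list had a median of -0.47, and 22 of its genes had the lower mean in LZ, as did 51% of all tested genes. The 4 called without the block were Kif20a (a mitotic kinesin), Ccnb2 (a mitotic cyclin), Cdc20 (an activator of the anaphase-promoting complex) and Cdca8 (a chromosomal passenger subunit). Ccnb2 had 10.28, 10.78 and 10.19 in LZ_high and 9.67, 10.08 and 9.92 in LZ_low, against 10.91, 11.15 and 11.28 in DZ_high and 11.07, 10.85 and 10.88 in DZ_low. Every LZ array lay below every DZ array, a difference of -0.87 ± 0.13 (limma adjusted p 0.0234). By affinity the same list had a median of 0.28 averaged over zones, 0.47 in LZ and 0.09 in DZ, with 0 called. Averaged over zones, 21 of its 23 genes were higher, against 49.6% of all tested genes. At an unadjusted p below 0.05, 8 of them were higher and 0 lower, where 2.21% of all tested genes were higher and 3.03% lower. A list of 23 ribosome biogenesis genes known as Myc targets had a median of 0.19 by affinity and 0.15 for LZ minus DZ, again with 0 called in either.

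Other genes of the same pathways had positive medians by affinity too. Of 33 tested further replication genes, 25 had positive affinity differences; the median was 0.17 and 0 were called. Ticrr (0.37 ± 0.12), which helps to load Cdc45, and Rnaseh2a (0.42 ± 0.15) and Rnaseh2c (0.36 ± 0.15), which remove RNA from DNA, had the smallest unadjusted p. Of 27 tested further genes of nucleotide synthesis, 22 were higher, with a median of 0.25 and 0 called. Gart (0.34 ± 0.11), Adsl (0.34 ± 0.12) and Ppat (0.44 ± 0.16), which act in purine synthesis, had the smallest unadjusted p there.

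Markers of other cell types were read beside the replication genes. The 5 T cell markers with a usable probe set had median values of 4.81 to 5.56 in LZ_high, 5.07 to 6.15 in LZ_low, 5.24 to 5.29 in DZ_high and 5.18 to 5.82 in DZ_low. Cd3g was 7.60 in LZ_low 3 and 6.67 in DZ_low 3, and at most 4.65 in the other 10 arrays. The 7 macrophage markers had median values of 4.26 to 5.07 in the 12 arrays. Of these, 2 were bright enough to test, and both were lower in high-affinity than in low-affinity cells of the LZ, with a median of -0.72 and 0 called. Cd68 had 7.93, 7.68 and 6.76 in LZ_high against 8.07, 8.02 and 8.15 in LZ_low, and Lyz2 ran from 3.84 in LZ_high 1 to 8.24 in LZ_low 3. The 7 granulocyte markers had medians of 5.32 to 5.86. Of these, S100a9 ran from 6.07 to 10.37, S100a8 from 5.01 to 9.60 and Camp from 5.10 to 7.08, while Ly6g, Mpo, Elane and Ltf varied less. In LZ_high, LZ_low, DZ_high and DZ_low, S100a9 had 10.35, 9.86, 10.37 and 9.58 in matched set 2. It had 6.07, 6.47, 6.11 and 7.68 in matched set 1, and 6.45, 9.82, 9.37 and 7.21 in matched set 3. In the same order of groups, S100a8 had 9.51, 8.78, 9.60 and 8.50 in matched set 2. In matched set 1 S100a8 had 5.90, 6.55, 5.01 and 6.22, and in matched set 3 6.06, 8.63, 8.61 and 7.67. All 4 tested plasma cell markers were higher in high-affinity cells, with a median difference of 0.34 and 0 called. Averaged over zones in the same way, all 4 B cell markers (median -0.19) and all 5 light zone markers (median -0.26) were lower. So were 3 of 4 germinal centre markers (median -0.20) and 3 of 4 dark zone markers (median -0.16). Of these markers 0 were called, and 50.4% of all tested genes were lower. Without matched set 3, which holds both arrays with high Cd3g, the median affinity difference of the replication genes was 0.32. The part of these markers in the affinity difference of the replication genes was not tested.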

How the data were processed

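RNA from sorted germinal centre B cells was amplified, biotin-labelled and hybridized to 12 one-colour arrays. The deposited values are log2 expression values per probe set, made with RMA per the submitters' processing notes, which also name the genome build mm8; the log base was read from the values (1.99 to 13.74), and no scanner files were used. The table lists 28853 probe sets; 21789 name 1 gene symbol, 1621 several and 5443 none, and only the first kind was read, with 1 probe set per gene (999 genes had several, including 4 of the 52: Pcna, Rpa3, Tk1 and Slbp). Symbols came from the platform annotation, and 21698 matched RefSeq by gene ID. Genes at or above the array's median in 3 or more of the 12 arrays were tested, which left 11206 of 19938 genes.

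A linear model with 1 mean per group was fitted to the 12 arrays (limma 3.58.1 under R 4.3.3, lmFit followed by eBayes, two-sided tests, no block), for 7 contrasts, with Benjamini-Hochberg adjustment over all tested genes and a threshold of 0.05; differences carry the standard error of the fit. The script was tested on simulated data. The interaction subtracts the affinity difference of DZ from that of LZ. The members, lists and tests were chosen with earlier results of these data known. Values in every array are given for 10 fixed genes and for the 4 genes with the smallest unadjusted p in each of 3 contrasts; the genes at the ends of each role are named too. Matched sets are arrays with the same suffix in their description label. After removal of group means, 17 of 18 same-set pairs correlated above 0.1 (median 0.406, lowest -0.0712), and the median for different sets was -0.321. Removing the means of groups of 3 arrays itself pushes correlations between different sets below 0, so -0.321 is no neutral baseline. Because of the same-set correlations, the set was also fitted as a block. Promoter windows came from RefSeq (GRCm38.p6). Some marker genes are not reported here.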

Additional observations from a re-analysis of the deposited data

How the results depend on the processing

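Alternatives were the matched set as a replicate block or as a random block, a new quantile normalization, median centring, no filter and a stricter filter on dim genes, a trended robust variance, array weights, averaging all probe sets of a gene, only the groups compared, each array left out in turn, and matched set 3 left out; leaving out matched set 2, and set 3 together with the block, were added after seeing the data. The number of replication genes called stayed at 0 in each contrast under each of these, with 1 exception. Array weights called 2 (Rfc3 and Rfc4) for high minus low affinity over both zones, in a fit whose weights (0.213 to 9.15, the highest for LZ_high 2) stopped before convergence. Leaving out single arrays kept that count at 0 and gave a median affinity difference of 0.22 to 0.37 over both zones, 0.15 to 0.34 in LZ and 0.23 to 0.43 in DZ. With the replicate block the median was 0.29 and the smallest adjusted p of the limma fit 0.327, and it changed no call of a replication gene. Each median stayed within the replicate spread (SD 0.158) of its value in all 172 comparisons. That limit is wide beside the median affinity difference of 0.29. Even the fall to 0.18 without matched set 2 lies within it, so the count says little about stability. Of 535 values for named genes, 533 kept their direction and side of the threshold. The exceptions were Gins1 for LZ minus DZ without matched set 3, at -0.06 without and -0.06 with the replicate block, and the cause was not tested. Since the main fit called none of the named genes, keeping the side of the threshold says little. Rfc3 and Rfc4 were followed here only within zones, so their calls over both zones with array weights lie outside this count. Cdt1 was too dim to test under the stricter filter, and restricting the fit to the groups compared gives nothing new for contrasts that use all 4 groups. With 3 arrays per group, differences near the standard errors could not be resolved. For the replication genes these errors were 0.10 to 0.37 averaged over zones or affinities and 0.14 to 0.52 within one. Larger differences also went uncalled in the fit with equal weights. For high minus low affinity over both zones, they ran from -1.45 to 1.56 over all tested genes, with 0 called.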
